A study of Mus musculus with 14 samples.

Results

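The nuclear genes of respiratory complex I were followed in the plantaris muscle of mice through 14 days of functional overload. The genes were chosen by a rule on their names, with earlier results of these data known. They are those whose probe set carried a single symbol of the form Nduf followed by a, b, c, s, v or ab and a number, with the brightest probe set used for each gene. This gave 35 genes of 19938 on the array with a single-symbol probe set, and none of the 35 was among the dim genes that an alternative fit leaves out. The muscle came from male C57BL/6J mice of 5 months. Overload was produced by synergist ablation, in which muscles that share the work of the plantaris are removed by surgery. The groups are day 0, for which the labels name no treatment, and days 1, 3, 5, 7, 10 and 14 of overload. Each day has 2 Affymetrix Mouse Gene 1.0 ST arrays, 1 for a pool of right and 1 for a pool of left plantaris muscles, with 6 animals to a pool. No sham-operated group is among these 14 arrays, so the effects of surgery and of load cannot be told apart.

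Complex I, the NADH:ubiquinone oxidoreductase, is the entry point of electrons from NADH into the mitochondrial respiratory chain, and it pumps protons across the inner membrane as the electrons pass. It is L-shaped. A peripheral arm in the matrix holds the flavin and the iron-sulfur clusters, and a membrane arm holds the proton-pumping subunits, which mitochondrial DNA encodes and which are outside the rule used here. Core subunits carry out catalysis, while accessory subunits surround and stabilise them. In skeletal muscle the complex is abundant in oxidative fibres, and its nuclear genes are known targets of the coactivator PGC-1α and of NRF1, GABP and the estrogen-related receptors.

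Transcripts of all 35 subunits fell on the first day of overload, and most were lowest on day 3 or day 7, when the typical subunit was at less than 50% of its day 0 intensity on these arrays. They then came part of the way back. The median change against day 0, on the log2 scale of deposited intensity, was -0.82 on day 1, -1.16 on day 3, -1.07 on day 5, -1.17 on day 7, -0.68 on day 10 and -0.51 on day 14. As a share of day 0 this is 56.8%, 44.7%, 47.7%, 44.5%, 62.4% and 70.3%. The median over all 19938 genes stayed between -0.16 and -0.07 on the same days.

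Genes were called changed at an adjusted p under 0.05 in limma, with Benjamini-Hochberg adjustment over all genes. Whether a day's right and left pools share animals is not stated, and the p-values rest on the spread between pools, part of which may be technical. All 35 subunits were called lower on day 1, where 34.7% of all genes were called lower. The count was again 35 of 35 on day 3 (23.4% of all genes), day 5 (38.1%), day 7 (37.8%) and day 10 (27.5%). On day 14 it was 33 of 35, against 20.7% of all genes. The exceptions on day 14 were Ndufa2 (-0.20, adjusted p = 0.0905) and Ndufa11 (-0.14, adjusted p = 0.468). No subunit was called higher than day 0 on any day in limma. The shares of all genes called higher were 20.3%, 24.2%, 27.0%, 28.5%, 23.6% and 21.4% on days 1, 3, 5, 7, 10 and 14. At an unadjusted p under 0.05, 0 subunits were higher, and the share of all genes was not counted at that threshold.

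The falls past 2-fold were concentrated in the middle of the course. On day 1, 5 subunits were more than 2-fold lower, against 3.17% of all genes. There were 20 on day 3 (4.40% of all genes), 21 on day 5 (5.09%) and 22 on day 7 (6.02%). On day 10 there were 2 (3.42%), Ndufb2 and Ndufs1, and on day 14 there were 0 (2.17%). For each of the 35 subunits, both pools of every overload day lay below both pools of day 0. The share of all genes with that property was 50.3% on day 1, 40.0% on day 3, 52.5% on day 5, 50.9% on day 7, 48.3% on day 10 and 42.0% on day 14. The moderated F test over the 6 days called 35 of 35 subunits and 71.3% of all genes.

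**Figure D1:**
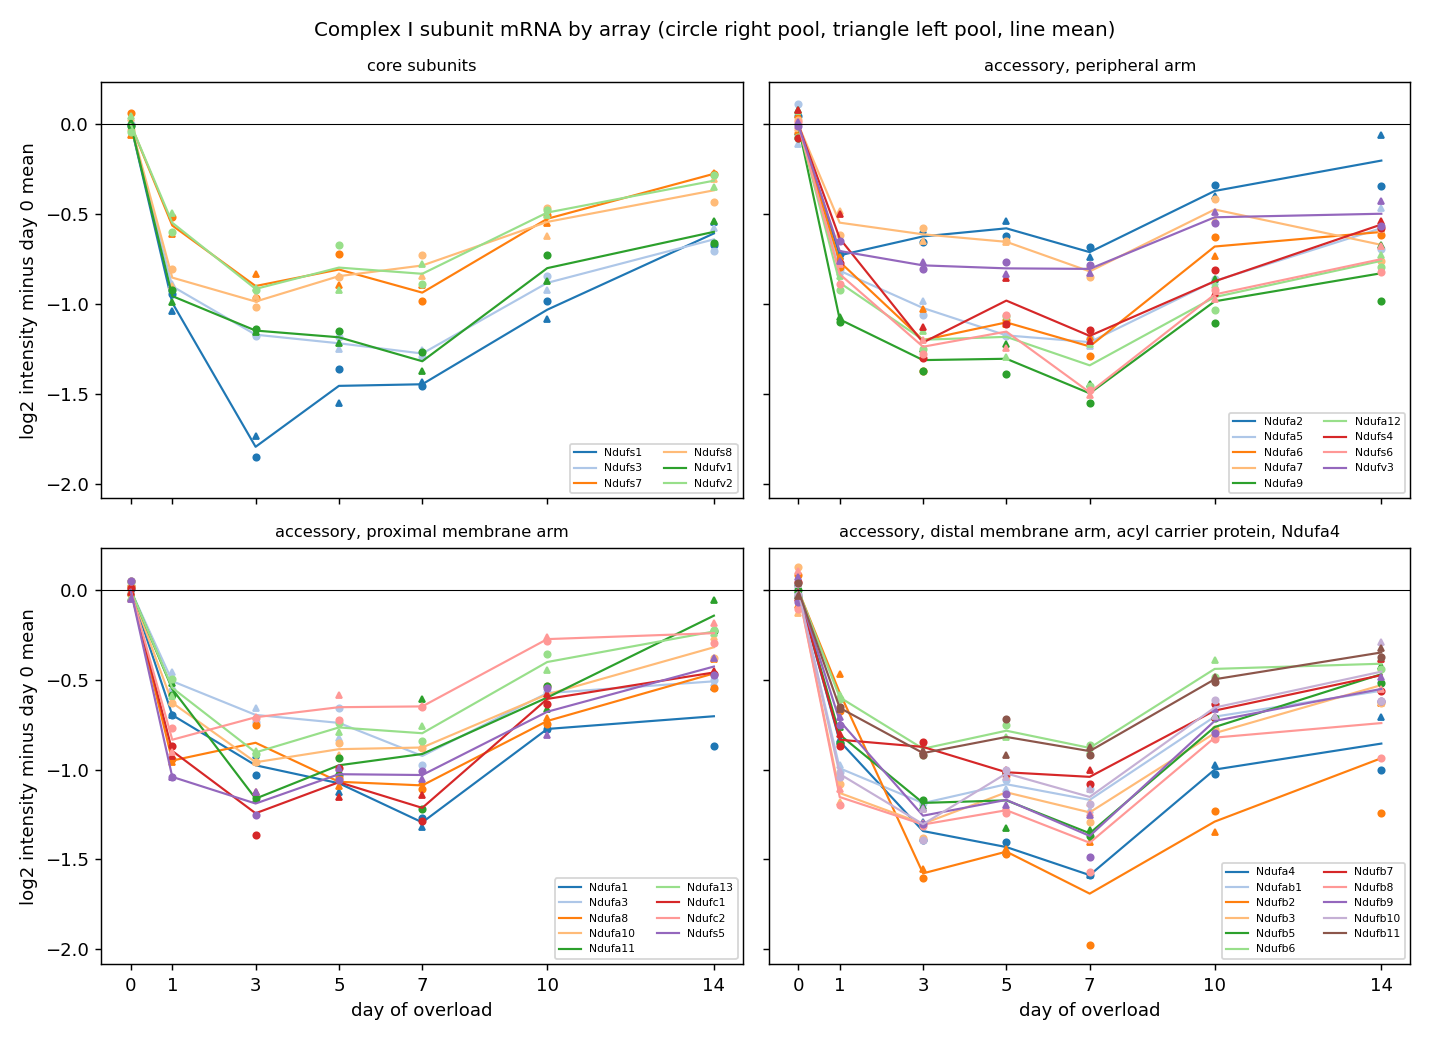
Log2 intensity of each complex I subunit minus its day 0 mean, by day of overload, in panels by position in the complex, with circles for right pools, triangles for left pools and lines through the day means. Every overload point lies below both day 0 points of its gene, with Ndufs1 lowest on day 3 and Ndufb2 lowest on day 7.

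Markers of several cell types moved over the same days. All 14 markers of macrophages were higher than day 0 on days 3, 5, 7 and 10, and 13 were on days 1 and 14. Their mean log2 intensity was highest on day 3, at 11.37 in the right and 11.36 in the left pool, against 8.59 and 8.50 on day 0. Markers of muscle fibres, such as Acta1, Ckm and Ttn, were lower in 7, 14, 13, 14, 9 and 6 of 14 on days 1, 3, 5, 7, 10 and 14, with medians of -0.22, -0.73, -0.80, -0.84, -0.31 and -0.17. That list also holds genes of fast fibres (Myh1, Myh4, Tnnt3, Tnni2 and Actn3), and a change of fibre type was not tested. Of 7 fibroblast markers, 6 were higher on each of days 3 to 10 and 7 on day 14, and their mean was 12.78 and 12.80 on day 7 against 10.79 and 10.62 on day 0. In such whole-muscle RNA, a smaller share of RNA from fibres and less subunit RNA per fibre cannot be told apart. Endothelial markers changed in both directions (2 of 6 lower and 4 of 6 higher on day 7), and 3 of 4 adipocyte markers were lower on days 1, 5, 7 and 10. The 5 liver genes, which muscle is not known to make in quantity, averaged 12.79 in the left pool of day 0 and 12.97 in the right pool of day 1, against 8.64 to 12.02 in the other 12 pools. Their part in the results was not tested. With those 2 pools left out together, 33 subunits were called lower on day 1 (27.2% of all genes), 35 on day 7 (32.8%) and 32 on day 14 (17.6%).

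The 6 measured core subunits fell together. Their median change was -0.88 on day 1, -1.07 on day 3, -1.11 on day 7 and -0.48 on day 14, and all 6 were called lower on all 6 days. Ndufv1 binds NADH and the flavin, where electrons enter, and its change was -0.96 ± 0.08 on day 1 and -1.32 ± 0.08 on day 7 (± SE of the fit). Ndufv2, which holds an iron-sulfur cluster beside that site, was -0.83 ± 0.09 on day 7. Ndufs1 is the largest subunit and carries several of the clusters along which electrons run.

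Ndufs1 had log2 intensities, right pool then left pool, of 12.18 and 12.20 on day 0, 11.24 and 11.15 on day 1, 10.33 and 10.45 on day 3, 10.83 and 10.64 on day 5, 10.73 and 10.75 on day 7, 11.20 and 11.11 on day 10, and 11.52 and 11.64 on day 14. All 12 overload pools were below both day 0 pools, with the lowest on day 3, and the day 14 pools were the nearest to day 0. The change was -1.80 ± 0.08 on day 3 (28.8% of day 0, adjusted p = 2.5e-08), -1.45 ± 0.08 on day 7 and -0.61 ± 0.08 on day 14. Ndufs1 was the subunit with the largest fall on day 3. It was higher on day 5 than on day 3 (0.34), and higher on day 14 than on day 10 (0.42). The first call was lost on omitting either day 3 pool or the right day 5 pool, and the second on omitting either pool of day 10 or day 14.

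Ndufs8, which holds a pair of iron-sulfur clusters near the quinone end of the chain, fell least of the core subunits on day 7. Its log2 intensities were 12.44 and 12.51 on day 0, 11.67 and 11.57 on day 1, 11.46 and 11.52 on day 3, 11.63 and 11.63 on day 5, 11.75 and 11.63 on day 7, 12.01 and 11.86 on day 10, and 12.05 and 12.17 on day 14. The overload pools kept within a narrow band on days 1 to 7 and the day 10 and day 14 pools were higher, without reaching day 0. The change was -0.99 ± 0.08 on day 3, -0.79 ± 0.08 on day 7 and -0.37 ± 0.08 on day 14. Ndufs7, whose cluster passes electrons to ubiquinone, was -0.94 ± 0.08 on day 7, and Ndufs3, of the same part of the arm, was -1.28 ± 0.07.

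Of the 9 accessory subunits of the peripheral arm, all were lower on days 1 to 10 and 8 on day 14. Their median change was -0.77 on day 1, -1.20 on day 3, -1.21 on day 7 and -0.60 on day 14. Ndufa9, which sits at the joint of the arms near the quinone site, had the largest fall on day 7. Its log2 intensities were 12.46 and 12.61 on day 0, 11.44 and 11.46 on day 1, 11.16 and 11.28 on day 3, 11.15 and 11.31 on day 5, 10.99 and 11.09 on day 7, 11.43 and 11.67 on day 10, and 11.55 and 11.86 on day 14. The day 7 pools were the lowest, at 35.4% of day 0 on average, and the groups did not overlap. The change was -1.09 ± 0.12 on day 1, -1.50 ± 0.12 on day 7 and -0.83 ± 0.12 on day 14, when its fall was the largest of the peripheral arm.

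Ndufa2, a small subunit with a thioredoxin-like fold, fell least in this arm on day 7. It had log2 intensities of 11.13 and 11.05 on day 0, 10.36 and 10.35 on day 1, 10.43 and 10.50 on day 3, 10.47 and 10.55 on day 5, 10.40 and 10.35 on day 7, 10.75 and 10.69 on day 10, and 10.75 and 11.02 on day 14. Its day 1 and day 7 pools were the lowest, and the left pool of day 14 came just below the lower day 0 pool. The change was -0.73 ± 0.09 on day 1, -0.71 ± 0.09 on day 7 and -0.20 ± 0.09 on day 14. Ndufs6, which binds zinc, was -1.49 ± 0.08 on day 7, close to Ndufa9, and Ndufa12 was -1.34 ± 0.10. Ndufs4, whose loss in mice gives a disease like Leigh syndrome, was -0.64 ± 0.11 on day 1 and -1.18 ± 0.11 on day 7. Ndufa6 was -1.24 ± 0.10, Ndufa5 -1.21 ± 0.09, Ndufa7 -0.82 ± 0.08 and Ndufv3 -0.81 ± 0.07 on day 7. Ndufa7 was the 1 subunit of the arm that stood lower on day 14 (-0.67) than on day 10 (-0.48), by -0.20 in a step that was not called.

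**Figure D2:**
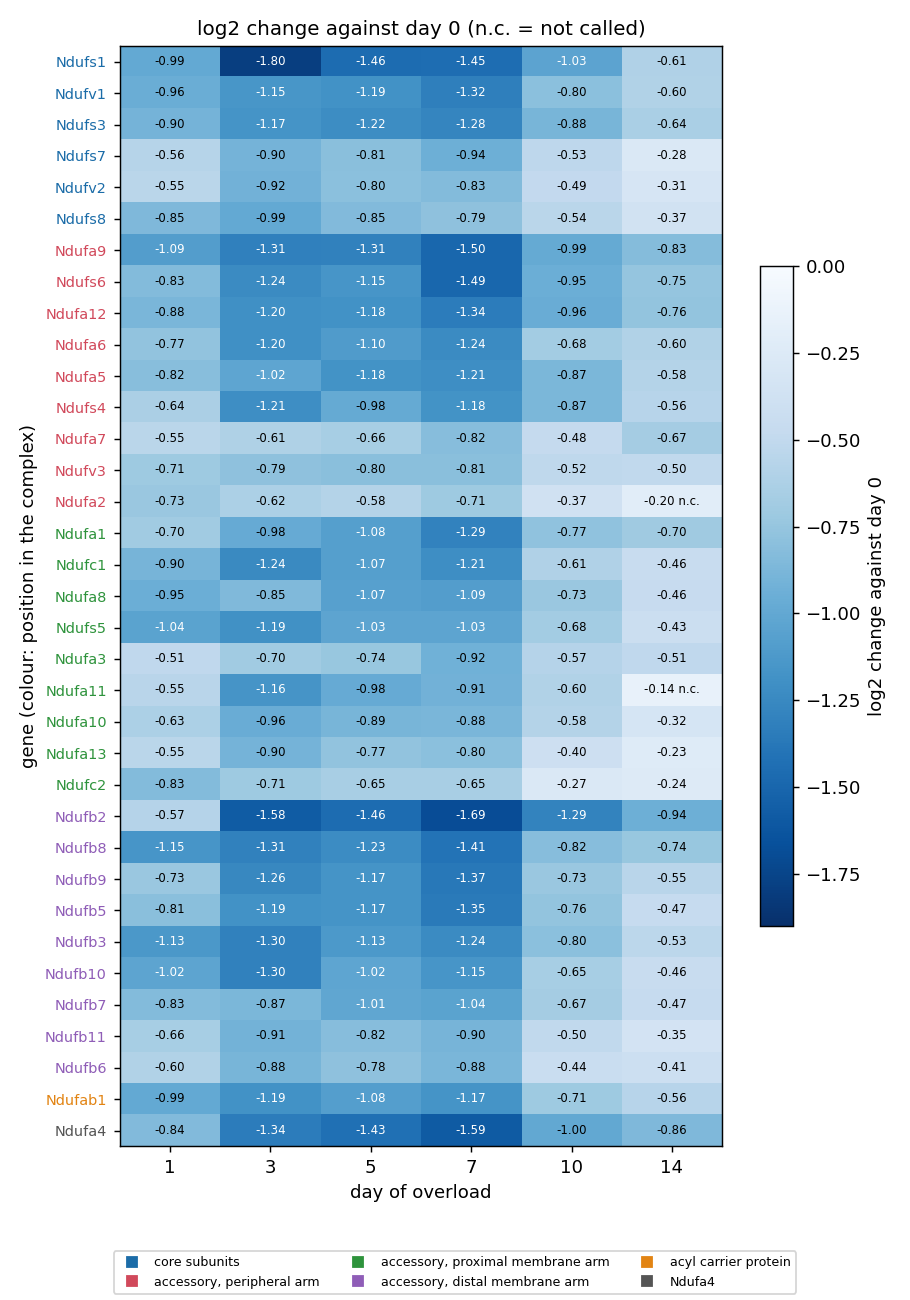
Log2 change of each subunit (rows, coloured by position in the complex) against day 0 on each day (columns), printed in the cells, with n.c. where not called. The largest falls are on days 3 to 7, down to -1.80 for Ndufs1 on day 3, and the day 14 values run from -0.94 for Ndufb2 to -0.14 for Ndufa11.

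The 9 accessory subunits of the proximal membrane arm had the smallest median fall of the groups on day 7 (-0.92), after -0.70 on day 1 and -0.96 on day 3. Their median was -0.43 on day 14. Ndufa1, a short subunit whose gene lies on the X chromosome, fell most on day 7. Its log2 intensities were 9.80 and 9.79 on day 0, 9.10 and 9.10 on day 1, 8.76 and 8.87 on day 3, 8.77 and 8.67 on day 5, 8.53 and 8.48 on day 7, 9.02 and 9.02 on day 10, and 8.93 and 9.26 on day 14. The fall went on through day 7, with both day 7 pools below all the others. The change was -0.70 ± 0.10 on day 1, -1.29 ± 0.10 on day 7 and -0.70 ± 0.10 on day 14.

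Ndufc2, like Ndufa2, had its lowest mean on day 1, and its rise from day 1 to day 3 (0.13) was not called. It had log2 intensities of 13.73 and 13.63 on day 0, 12.91 and 12.78 on day 1, 12.97 and 12.98 on day 3, 12.96 and 13.10 on day 5, 13.03 and 13.04 on day 7, 13.40 and 13.42 on day 10, and 13.39 and 13.50 on day 14, with the lowest pools on day 1 and a level on days 3 to 7 above that of day 1. The change was -0.83 ± 0.08 on day 1, -0.65 ± 0.08 on day 7 and -0.24 ± 0.08 on day 14. Ndufa11, a membrane protein related to the import channel Tim17, had log2 intensities of 12.35 and 12.25 on day 0, 11.72 and 11.78 on day 1, 11.14 and 11.13 on day 3, 11.36 and 11.29 on day 5, 11.08 and 11.69 on day 7, 11.77 and 11.64 on day 10, and 12.07 and 12.24 on day 14. The right and left pools of day 7 lay 0.61 apart, a wider gap than for any other subunit on that day, and the left pool of day 14 lay just below the day 0 pools. Its change was -1.16 ± 0.15 on day 3 and -0.14 ± 0.15 on day 14.

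The other members of this arm fell by similar amounts. On day 7 the change was -1.21 ± 0.09 for Ndufc1, -1.09 ± 0.08 for Ndufa8 and -1.03 ± 0.09 for Ndufs5, the last 2 of which have the paired cysteines of intermembrane-space proteins. Ndufa3 was -0.92 ± 0.08, Ndufa10 -0.88 ± 0.07 and Ndufa13, also known as GRIM-19, -0.80 ± 0.07.

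The 9 accessory subunits of the distal membrane arm had the largest median fall on day 7 (-1.24), against -0.81 on day 1, -1.26 on day 3 and -0.47 on day 14. Ndufb2 had the largest fall of all 35 on days 7, 10 and 14. Its log2 intensities were 10.10 and 9.93 on day 0, 9.34 and 9.55 on day 1, 8.42 and 8.47 on day 3, 8.55 and 8.58 on day 5, 8.04 and 8.62 on day 7, 8.79 and 8.67 on day 10, and 8.78 and 9.39 on day 14. The right pool of day 7 was the lowest of all, 0.58 below the left, and on day 14 the right pool was 0.61 below the left. The change was -0.57 ± 0.20 on day 1, -1.58 ± 0.20 on day 3, -1.69 ± 0.20 on day 7 (31.0% of day 0) and -0.94 ± 0.20 on day 14 (adjusted p = 0.0031). Most of its fall came between days 1 and 3, when it went to 49.8% of the day 1 level.

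Ndufb6, a single-span membrane subunit, fell least of this arm on day 7. It had log2 intensities of 13.23 and 13.30 on day 0, 12.66 and 12.68 on day 1, 12.35 and 12.41 on day 3, 12.52 and 12.45 on day 5, 12.40 and 12.37 on day 7, 12.78 and 12.87 on day 10, and 12.83 and 12.88 on day 14. Pools of the same day lay close to each other and all overload pools were below day 0. The change was -0.88 ± 0.07 on day 3, -0.88 ± 0.07 on day 7 and -0.41 ± 0.07 on day 14. Ndufb8, which is often used as a marker protein of assembled complex I, had the largest fall on day 1 (-1.15 ± 0.13) and was -1.41 ± 0.13 on day 7. Ndufb9, which carries an LYR motif, was -1.37 ± 0.09, Ndufb5 -1.35 ± 0.09, Ndufb3 -1.24 ± 0.11, Ndufb10 -1.15 ± 0.10, Ndufb7 -1.04 ± 0.08 and Ndufb11 -0.90 ± 0.07 on day 7.

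Ndufab1 is the mitochondrial acyl carrier protein, bound to LYR-motif subunits in both arms and also used in fatty acid synthesis. Its log2 intensities were 11.66 and 11.70 on day 0, 10.67 and 10.71 on day 1, 10.50 and 10.49 on day 3, 10.63 and 10.57 on day 5, 10.57 and 10.45 on day 7, 11.05 and 10.90 on day 10, and 11.06 and 11.18 on day 14. It was near its lowest level from day 3 to day 7, with a change of -1.19 ± 0.08 on day 3, -1.17 ± 0.08 on day 7 and -0.56 ± 0.08 on day 14. Ndufa4 was long counted as a complex I subunit and is now placed in complex IV. It had log2 intensities of 12.39 and 12.47 on day 0, 11.58 and 11.60 on day 1, 11.04 and 11.14 on day 3, 11.02 and 10.97 on day 5, 10.84 and 10.84 on day 7, 11.40 and 11.46 on day 10, and 11.43 and 11.72 on day 14. Its change was -1.34 ± 0.09 on day 3, -1.59 ± 0.09 on day 7 and -0.86 ± 0.09 on day 14, and it was among those that fell most on day 7. It moved in the same direction as the subunits of complex I and as those of complex IV (median -1.08 on day 7). Which of these it followed more closely was not tested.

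The day of the lowest mean was day 1 for Ndufa2 and Ndufc2, day 3 for 14 subunits and day 7 for 19. The change did not arrive in a single step. Between days 1 and 3, 19 of 35 were called lower again and 0 higher, against 13.2% of all genes lower and 21.5% higher, with a median of -0.28. The step was largest for Ndufb2 (49.8% of day 1) and Ndufs1 (57.4% of day 1), and near 0 for Ndufb7 (-0.04), Ndufa7 (-0.06) and Ndufv3 (-0.08). Ndufa2 (0.11), Ndufa8 (0.10) and Ndufc2 (0.13) rose over this step and were not called. Without the right pool of day 3, 11 were called lower between these days. Between days 3 and 5 only Ndufs1 was called, higher (6.41% of all genes were called higher and 11.2% in either direction), and between days 5 and 7 limma called 0 (1.15% of all genes in either direction), with 3 lower at an unadjusted p under 0.05. Between days 7 and 10, 31 of 35 were called higher, against 6.95% of all genes, with a median of 0.40. Those not called were Ndufa11, Ndufb2, Ndufs4 and Ndufs8, with changes of 0.31, 0.40, 0.30 and 0.24. This count rested on single pools. It was 11 when the right pool of day 7 was left out. Omitting a day 10 pool gave 14 for the right one and 20 for the left one. The share of all genes was not counted in fits that left out a single pool, so those counts have no background of their own. Between days 10 and 14 Ndufs1 alone was called higher (2.11% of all genes). Days 10 and 14 together, set against days 5 and 7, gave 35 of 35 called higher (17.7% of all genes), with a median of 0.47.

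**Figure D3:**
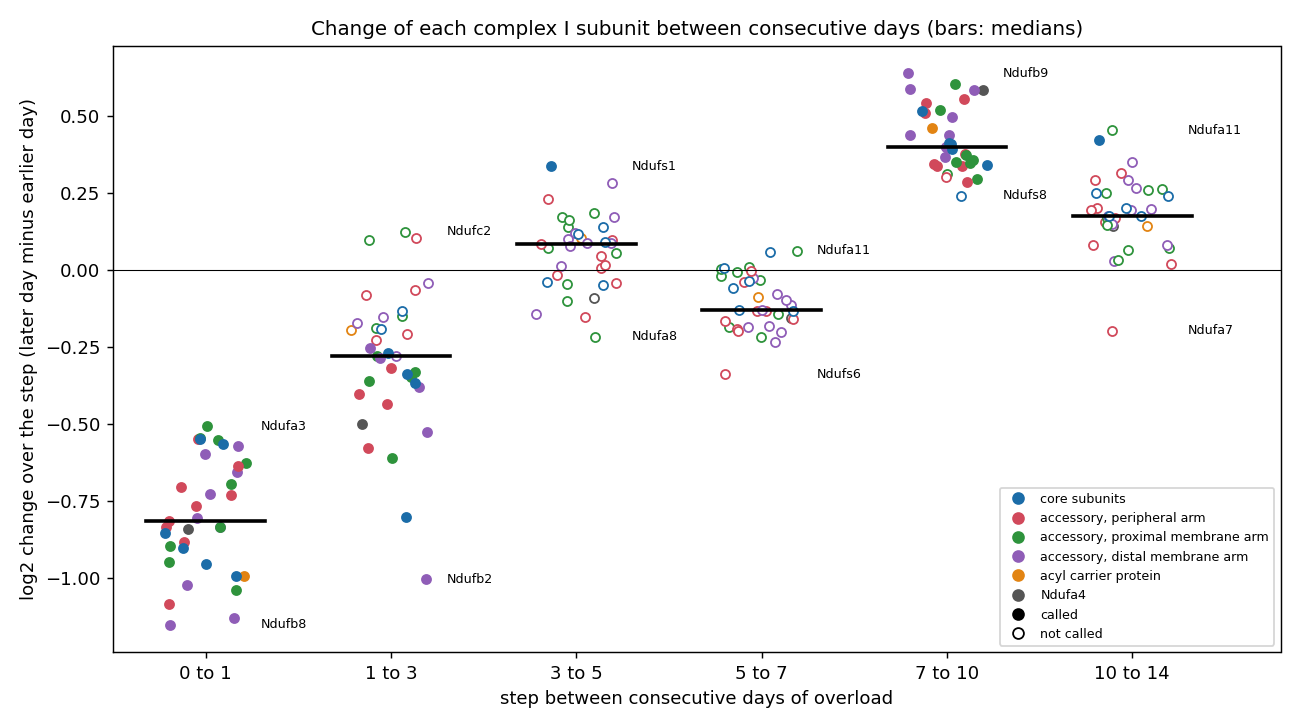
Change of each subunit between consecutive days, later day minus earlier day, with filled points for called steps and a bar at the median. All 35 subunits fell in the first step. Most fell again in the second, with a smaller median fall, while Ndufa2, Ndufa8 and Ndufc2 rose and were not called. The upward step between days 7 and 10 is the only one in which most were called higher (31 of 35).

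Right and left pools were compared as well. In a fit with day and side, limma called 0 of 35 subunits and 0 of 19938 genes, and 3 subunits and 586 genes had an unadjusted p under 0.05. The pools differed most on day 14, where the left pool was higher in 32 of 35 subunits, with a median difference, right minus left, of -0.13. The mean of the 35 changes on that day was -0.59 in the right and -0.44 in the left pool.

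A promoter here is the stretch of 250 bases before and 50 after a gene's RefSeq start (GRCm38.p6), and 32 of the 35 genes matched 34 such promoters. They are shown because the genes moved together and because the letters of known regulators of these genes can be looked for in them. The letters AAGATGGC, the core recognised by YY1, stood in 7 of 34 promoters (20.6%), against 2.75% of 32851 promoters of all genes and 3.18% of those of genes on the array, counted on both strands. All 7 lie on the gene's own strand, with the first base 23 to 39 bases after the start. These 30-base windows are given 5′ to 3′ on the gene's strand with the letters in capitals. The letters contain ATG, and where the start codon lies was not looked up.
Ndufa3 (chr7:3617384-3617413, + strand): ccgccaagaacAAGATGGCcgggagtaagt
Ndufa9 (chr6:126849097-126849126, - strand): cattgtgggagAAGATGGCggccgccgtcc
Ndufb8 (chr19:44555393-44555422, - strand): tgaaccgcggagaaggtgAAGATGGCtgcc
Ndufc1 (chr3:51408915-51408944, - strand): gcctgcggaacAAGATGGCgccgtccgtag
Ndufs4 (chr13:114388045-114388074, - strand): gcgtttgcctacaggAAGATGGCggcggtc
Ndufs6 (chr13:73328433-73328462, - strand): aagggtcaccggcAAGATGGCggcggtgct
Ndufs7 (chr10:80249462-80249491, + strand): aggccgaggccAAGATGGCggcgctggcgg
The NRF1 letters, GCGCA and GCGC around any 1 base, stood in 7 of 34 promoters (20.6%), those of 6 genes, against 4.60% of all promoters and 6.91% of those of genes on the array. The match of Ndufa5 falls in both of its promoters, and that of Ndufa11 reads the same on both strands. In the lines that follow the capitals mark the matched bases on the gene's strand.
Ndufa5 (chr6:24527697-24527726, - strand): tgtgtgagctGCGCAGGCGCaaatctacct
Ndufa6 (chr15:82354249-82354278, - strand): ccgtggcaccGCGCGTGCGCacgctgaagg
Ndufa8 (chr2:36049349-36049378, - strand): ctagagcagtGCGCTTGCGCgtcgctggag
Ndufa11 (chr17:56717692-56717721, + strand): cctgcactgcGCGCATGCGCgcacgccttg
Ndufs5 (chr4:123718265-123718294, - strand): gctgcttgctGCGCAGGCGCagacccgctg
Ndufs6 (chr13:73328479-73328508, - strand): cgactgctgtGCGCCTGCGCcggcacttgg
The promoter of Ndufs6 holds both, with the NRF1 letters before the start and the YY1 letters after it, and is given whole with both in capitals.
Ndufs6 promoter (chr13:73328433-73328732, - strand): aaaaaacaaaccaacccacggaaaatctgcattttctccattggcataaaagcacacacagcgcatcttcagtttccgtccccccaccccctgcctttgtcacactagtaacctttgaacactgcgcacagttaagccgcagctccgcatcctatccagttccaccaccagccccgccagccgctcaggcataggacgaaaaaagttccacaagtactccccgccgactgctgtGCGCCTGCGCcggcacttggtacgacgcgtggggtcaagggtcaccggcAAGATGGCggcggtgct
The promoter of Ndufb2, the gene with the largest fall on day 7, held neither. It held the letters AAGGTCA of the estrogen-related receptors, in capitals, which stood in 2 of 34 promoters (5.88%), in 4.72% of all and in 3.82% of those of genes on the array.
Ndufb2 promoter (chr6:39592315-39592614, + strand): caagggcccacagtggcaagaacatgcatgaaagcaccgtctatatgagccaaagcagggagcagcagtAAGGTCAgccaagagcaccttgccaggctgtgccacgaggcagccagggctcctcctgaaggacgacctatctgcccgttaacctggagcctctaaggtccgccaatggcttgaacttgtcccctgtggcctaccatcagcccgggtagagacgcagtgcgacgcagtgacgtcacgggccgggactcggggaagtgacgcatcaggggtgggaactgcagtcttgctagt
The ETS letters CCGGAAG, which GABP recognises, stood in 4 of 34 (11.8%), against 8.86% of all and 12.1% of those of genes on the array. CCAAT stood in 9 of 34 (26.5%), against 37.4% of either set, and the TATA letters TATAAA in 5 of 34 (14.7%), against 13.6% and 11.5%. The median change on day 7 was -1.21 for the 7 genes with the YY1 letters and -1.09 for the 25 matched genes without them, and -1.15 with and -1.16 without the NRF1 letters. It was -1.36 with and -1.16 without the AAGGTCA letters (2 and 30 genes), -0.96 with and -1.17 without the ETS letters (4 and 28 genes), -0.90 with and -1.17 without CCAAT (9 and 23 genes) and -0.93 with and -1.20 without the TATA letters (4 and 28 genes). The ranges with and without the letters overlapped for each of these motifs, and the differences were not tested. A match of letters is a description of the sequence and not a site of binding.

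Regulators linked to respiratory genes or to mitochondrial DNA were read from a list of 13. Ppargc1a, which encodes PGC-1α, was -1.26 ± 0.17 on day 1, -2.97 ± 0.17 on day 3, -2.30 ± 0.17 on day 7 and -0.63 ± 0.17 on day 14. Ppargc1b was -1.26 on day 1 and -0.14, not called, on day 14. Esrra was lower on all 6 days, from -1.21 on day 7 to -0.84 on day 14, and Esrrg was -1.73 on day 1 and 0.00, not called, on day 14. Ppara was lowest on day 7 (-2.35), and Tfam and Tfb2m, which act on mitochondrial DNA, were lower on all 6 days. Hif1a was higher on all 6 days (1.75 on day 1 and 1.92 on day 7), as was Gabpb1 (1.06 and 0.64), and Nrf1 was higher on days 1 to 7 (0.54 on day 1). Ppard was higher on day 1 (1.28) and lower on days 5 to 14. Gabpa and Yy1 were called on no day, with values between -0.18 and 0.20. Of the 13, 7, 7, 8, 8, 8 and 6 were lower and 4, 3, 3, 3, 2 and 2 higher on days 1, 3, 5, 7, 10 and 14.

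Nuclear subunits of the other complexes of the chain and of ATP synthase moved in the same direction. Of 36 measured, 34, 36, 36, 36, 35 and 32 were lower on days 1, 3, 5, 7, 10 and 14, and 0 higher on any of them, with medians of -0.70, -0.98, -0.94, -0.97, -0.56 and -0.44. The median for complex I was lower than that of these 36 together on each of these days, while the median of the 4 complex II subunits alone was -1.01, -1.10, -1.11, -1.17, -0.76 and -0.52, below that of complex I on each day but day 3. No test of these differences was made. Cox7a1, the heart and muscle form of a complex IV subunit, had the largest fall on day 7 (-2.43). Atp5d, of ATP synthase, had the smallest on day 7 (-0.31). By complex, the day 7 medians were -1.17 for complex II, -1.13 for complex III, -1.08 for complex IV and -0.91 for ATP synthase. Cycs, the mobile electron carrier cytochrome c, was -0.16 and not called on day 1, and -0.76 on day 7.

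Factors that assemble complex I but are not part of it moved less uniformly. Of 17 measured, 15, 12, 12, 12, 13 and 11 were lower on days 1, 3, 5, 7, 10 and 14, and 0 higher, with medians of -0.65, -0.57, -0.53, -0.63, -0.52 and -0.39. Ecsit, part of the assembly complex of the membrane arm, fell most on day 7 (-1.58 ± 0.09), and Ndufaf1 of the same assembly complex fell most on day 3 (-1.44 ± 0.10). Dmac2 was -1.15 on day 1 and -1.31 on day 7. Nubpl, which delivers iron-sulfur clusters, and Lyrm2 were called on no day. From day 1 to day 3 the assembly factors had 1 of 17 lower and 4 higher, with a median of 0.09. From day 7 to day 10, 4 of 17 were higher, with a median of 0.07. Ndufa4l2, a relative of Ndufa4 known as a hypoxia-induced gene, was lower on day 1 (-0.46) and higher on days 3, 5 and 10 (0.36, 0.45 and 0.31).

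**Figure D4:**
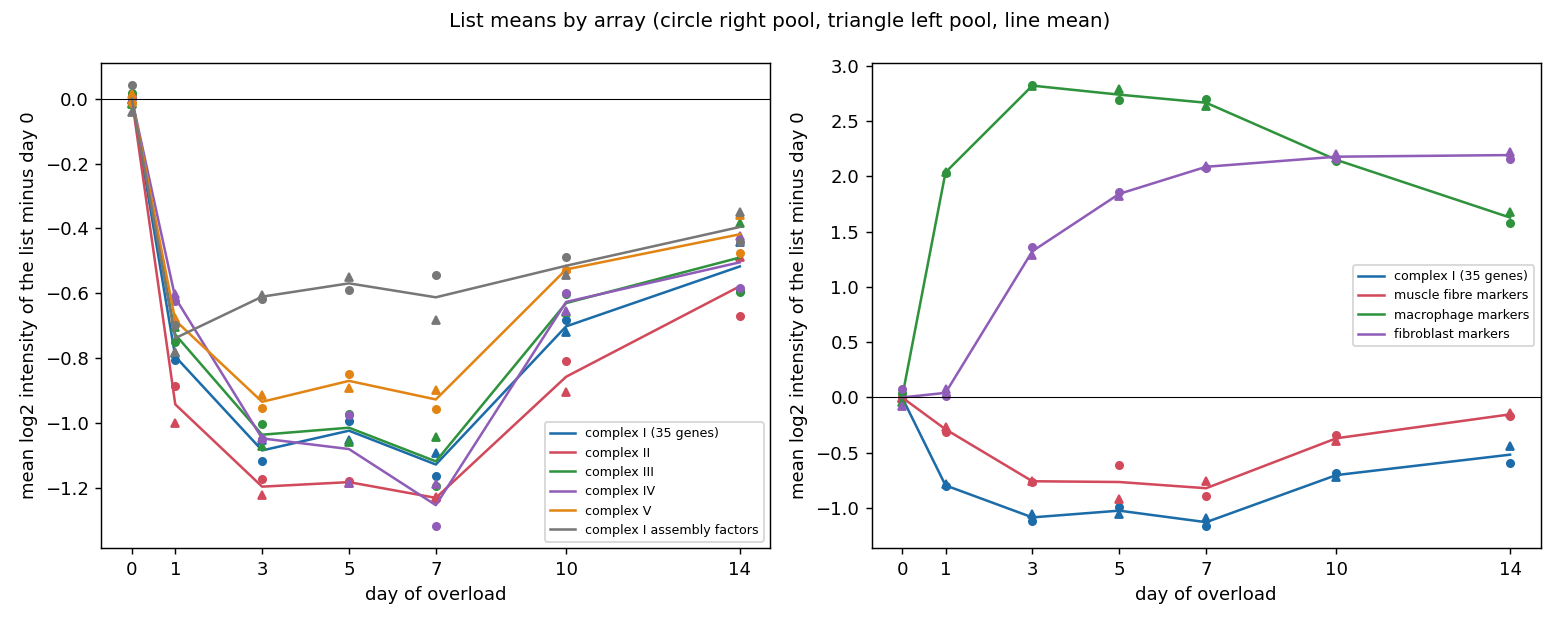
Mean log2 intensity of each list minus its day 0 mean, by day of overload, with circles for right and triangles for left pools; the left panel shows the respiratory complexes (ATP synthase as complex V) and assembly factors, the right panel the cell type markers. The complex I subunits and the other complexes run below 0 throughout, while the macrophage markers rise to 2.83 and 2.81 on day 3.

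The fall of the subunits can also be read against the fibre markers, whose own mean changed. Their mean change was -0.29, -0.76, -0.76, -0.82, -0.37 and -0.15 on days 1, 3, 5, 7, 10 and 14. When every array was shifted so that the 14 fibre markers had the same mean, the median change of the subunits was -0.53, -0.40, -0.30, -0.35, -0.31 and -0.36. Called lower were 26 of 35 on day 1 (8.79% of all genes), 19 on day 3 (3.96%), 18 on day 5 (3.57%), 18 on day 7 (3.91%), 17 on day 10 (5.63%) and 18 on day 14 (6.03%). In limma 0 were called higher, against 27.6%, 84.2%, 79.1%, 83.3%, 38.9% and 21.6% of all genes called higher. At an unadjusted p under 0.05, 0 subunits were higher, and the share of all genes was not counted at that threshold. On this scale the largest median fall was on day 1, and the step from day 7 to day 10 had 0 subunits called higher (0.893% of all genes) and 0 lower (70.8%), with a median of -0.05. From day 1 to day 3, 10 subunits were called higher (76.4% of all genes) and 2 lower (2.61%). The shift moved all genes by the same amount, and it is not known that the fibre markers themselves were constant per fibre. The mean of the fibre markers lay near the top of the intensity range, at 13.95 and 13.94 in the right and left pools of day 0. The highest log2 intensity on the arrays was 14.85, and the subunits averaged 11.89 and 11.88 on day 0. Whether so bright a signal compresses the markers' changes was not tested. On the shifted scale 8 subunits stood above day 0, and not called, on at least 1 day. Ndufa2, Ndufa7 and Ndufc2 did so on days 3, 5 and 7, by 0.13, 0.18 and 0.11 for Ndufa2, 0.14, 0.11 and 0.0009 for Ndufa7 and 0.05, 0.11 and 0.17 for Ndufc2. Ndufa3 did so on days 3 and 5, Ndufa13, Ndufs8 and Ndufv3 on day 7, Ndufc2 also on day 10 and Ndufa11 on day 14, by 0.01 to 0.095.

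**Figure D5:**
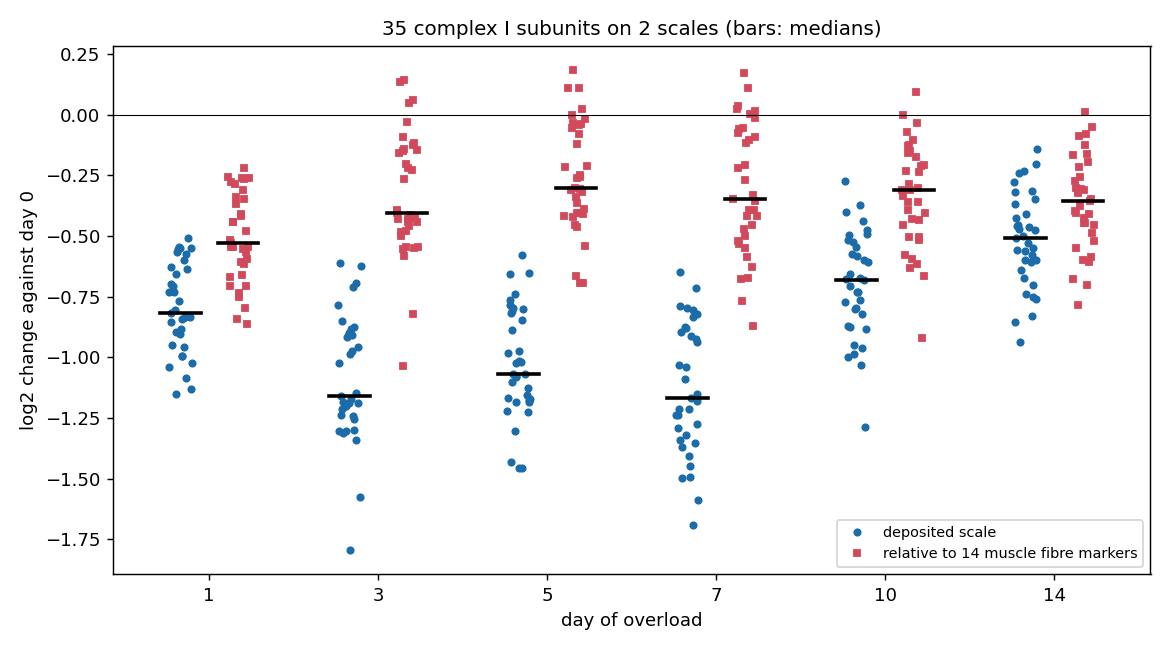
Log2 change of the 35 subunits against day 0, by day, on the deposited scale (circles) and (squares) after arrays were shifted to an equal mean of 14 muscle fibre markers, with bars at the medians. The medians on day 7 are -1.17 on the deposited scale and -0.35 after the shift, while on day 1 they are -0.82 and -0.53.

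The subunits followed one another closely. Pearson's r of each subunit with the mean of the others over the 14 arrays ran from 0.838 for Ndufc2 to 0.993 for Ndufs3, a description over arrays that share 7 days. The genes outside complex I with the highest r to the mean of the 35 subunits were Hjv (0.998), Rcsd1 (0.994), Smco1 (0.993), Iscu (0.993), Hint3 (0.993), Uqcrfs1 (0.992), Cox4i1 (0.991), Atp5c1 (0.991), Dhrs11 (0.989) and Mfn2 (0.988). Of these, Iscu is a scaffold for iron-sulfur clusters, Uqcrfs1 the Rieske protein of complex III, Cox4i1 a subunit of complex IV, Atp5c1 a subunit of ATP synthase and Mfn2 a protein of mitochondrial fusion. Hjv, Rcsd1 and Smco1, with the highest r, and Hint3 and Dhrs11 are on none of the gene lists used here. Day 7 changes of all the genes named ran from -3.87 for Smco1 to -0.84 for Iscu.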

How the data were processed

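RNA was measured on 14 Affymetrix arrays, 2 for each of 7 days. The deposited values are linear intensities, 1 per probe set, made with Partek per the submitters' processing notes, whose version is not given. How they were summarised and normalized is not given in the sources used here. Array medians lay between 242.8 and 254.9. Per the labels' protocols, labelling started from 250 ng of total RNA, and the design text gives 100 ng.

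Deposited intensities were put on the log2 scale with no other normalization. The file holds 35556 probe sets, of which 21789 carried 1 gene symbol, 1621 several, and 12146 were not listed in the platform annotation, which paired probe sets with genes. Of the 43 probe sets that name a subunit, 40 carried 1 symbol. The brightest was used for each of 5 subunits with several. limma 3.58.1 under R 4.3.3 fitted 1 mean per day over all 14 arrays (7 residual degrees of freedom, 3.88 added by the prior). P-values were two-sided and adjusted by Benjamini-Hochberg over 19938 genes in each of 12 contrasts. The number of arrays limits the precision. The pipeline was tested on simulated data. Figures were drawn with matplotlib 3.10.9 under Python 3.11.15.

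Every subunit is named. Values per array are given for the subunits with the largest and smallest fall on day 7 in each group by position, and for Ndufa11, which was chosen after its values were seen. Genes outside the complex came from lists of assembly factors, other respiratory complexes, regulators and cell type markers, or were the 10 genes with the highest correlation to the subunits. The subunits and lists were chosen with earlier results of these data known. Alternatives tried were quantile normalization, equal array medians, an equal mean of fibre markers, an offset of 50 before the log, leaving out dim genes, other uses of probe sets, trended and robust priors, side as a replicate block, fits on the days compared alone, limma's treat at 1.2-fold, a threshold of 1.5-fold and leaving out each array.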

Additional observations from a re-analysis of the deposited data

How the results depend on the processing

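Among 35 subunits, the counts called lower against day 0 stayed within 1.5 times under every alternative but 3. These were the equal mean of fibre markers, the 1.5-fold threshold and treat at 1.2-fold. Under all alternatives, 0 were called higher than day 0 in limma. With the equal mean of fibre markers, the counts lower were 26 on day 1, 19 on day 3, 18 on day 5, 18 on day 7, 17 on day 10 and 18 on day 14, with medians of -0.53, -0.40, -0.30, -0.35, -0.31 and -0.36. Between days 1 and 3, 2 were then lower and 10 higher, 0 were called higher between days 3 and 5, 7 and 10, or 10 and 14 (2.25%, 0.893% and 0.140% of all genes), and days 10 and 14 against days 5 and 7 gave 3 lower and 0 higher (90.0% and 1.42% of all genes). This shift turned 16 of the subunits' values against day 0 positive, in 8 genes, 0 of them called. Among genes with values per array these were Ndufa2 (0.13, 0.18 and 0.11 on days 3, 5 and 7), Ndufc2 (0.049, 0.11, 0.17 and 0.095 on days 3, 5, 7 and 10), Ndufs8 (0.034 on day 7) and Ndufa11 (0.009 on day 14), and the others were of Ndufa3, Ndufa7, Ndufa13 and Ndufv3. At the 1.5-fold threshold 23 were lower on day 10, 12 on day 14 and 3 between days 1 and 3, and 4 were higher between days 7 and 10 and 4 for days 10 and 14 against days 5 and 7. Treat gave 17 lower on day 14, 2 lower between days 1 and 3, 1 higher between days 7 and 10 and 20 higher for the later against the middle days. Both gave 0 higher between days 3 and 5 and between days 10 and 14. The share of all genes was not counted under either rule, so these counts have no background of their own. The count higher between days 10 and 14, 1 in the report, was 4 with quantile normalization and with the trended prior, 3 with the offset and when dim genes were left out, and 2 with only the arrays of the days compared, which gave 0 between days 3 and 5. The trended prior and the omission of dim genes each gave 1 lower between days 5 and 7. Medians on days 1 and 7 were -0.85 and -1.22 with quantile normalization, and on days 3 and 7 -1.18 and -1.22 with equal array medians. With the offset they were -0.80, -1.14, -0.99 and -1.13 on days 1, 3, 5 and 7. When 1 pool each of day 0 (left) and day 1 (right) was dropped, an alternative chosen after seeing the data, they were -0.78, -1.14 and -1.12 on days 1, 3 and 7. Leaving out 1 pool at a time gave medians of -0.82 to -0.78 on day 1, -1.16 to -1.12 on day 3, -1.09 to -1.03 on day 5, -1.19 to -1.11 on day 7, -0.72 to -0.63 on day 10 and -0.58 to -0.45 on day 14. The count lower between days 1 and 3 then ran from 11, without the right pool of day 3, to 20. The count higher ran from 11 to 31 between days 7 and 10, from 0 to 1 between days 3 and 5, and from 0 to 2 between days 10 and 14. The last was 0 on omitting either pool of day 10 or of day 14 and 2 without either pool of day 5 or of day 7. Ndufs1 between days 3 and 5 was not called without either pool of day 3 or the right pool of day 5. In a fit with side as a replicate block, 35 subunits were lower on day 7, 33 on day 14 and 18 between days 1 and 3. The share of all genes was not counted there, nor in fits that left out a single pool. The correlation of same-side deviations over 21 pairs of days ran from -0.583 to 0.438 and was over 0.1 in 9, so side was not taken to pair pools across days. That correlation cannot show whether a day's right and left pools share animals. The block moved no count by over 1.5 times. Apart from the effects of fewer samples and stricter thresholds, the cause of these shifts was not tested.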

Other observations

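Probe sets outside the rule gave the same direction. Ndufb4, a subunit of the distal membrane arm, is read by 2 probe sets that also name Ndufb4b, so the genes cannot be told apart there. On day 7 these probe sets were at -1.09 ± 0.08 and -1.06 ± 0.08 against day 0, and on day 14 at -0.58 ± 0.08 and -0.56 ± 0.08 (SE). Their log2 intensities on day 7 were 12.16 and 12.24 on the first and 12.43 and 12.54 on the second (right and left pool), against 13.28 and 13.30, and 13.54 and 13.53, on day 0. A probe set shared by Ndufs5 and Ndufs5-ps was at -0.95 ± 0.10 on day 7 and -0.44 ± 0.10 on day 14. The second probe sets of Ndufa11, Ndufab1, Ndufb11, Ndufc1 and Ndufs3 were at -0.79, -1.18, -1.06, -1.18 and -1.34 on day 7, against -0.91, -1.17, -0.90, -1.21 and -1.28 for the brighter ones. On day 14 the second probe set of Ndufa11 was at -0.18 and, like the brighter one, not called.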
